A study of Mus musculus with 14 samples.

Results

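The genes described here are the 10 Tceal and Bex genes Tceal1, Tceal3, Tceal5, Tceal6, Tceal7, Tceal8, Wbp5, Bex1, Bex2 and Bex4, taken by symbol from the 24386 genes listed for each of 14 libraries of mouse tibialis anterior muscle. All 10 lie on the X chromosome, most of them as close neighbours. They were chosen because they neighbour each other and with the response of Tceal7 to follistatin already known, so every follistatin value set against control below is a description and supports no test. The tissue came from C57Bl/6 mice, and polyadenylated RNA was sequenced from 4 follistatin and 3 control muscles at day 3, 2 follistatin and 2 control muscles at day 7, and 2 follistatin and 1 control muscles at day 14. No other allele or agent is named for any group. The authors' deposited comparisons name the control group MCS and the follistatin group FST. The labels do not say how follistatin was supplied or what the controls were given, nor whether the muscles of a group came from separate mice, so the spread between libraries may be technical. The study set days 7 and 14 together as its chronic time points, and both that set and the single days are given here.

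Follistatin is secreted and holds back myostatin and activins, hormones of the TGF-β family that restrain muscle growth. Tceal genes (transcription elongation factor A-like) are named for their resemblance to TFIIS, the factor that restarts stalled RNA polymerase II. Bex genes (brain expressed X-linked) encode small proteins of the same gene cluster and are known mostly from nerve tissue. In mouse muscle, Tceal7 has been studied as a target of the myogenic E-box factors that acts on myoblast proliferation and differentiation, and Bex1 has been studied in muscle regeneration.

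On the mm10 build used by the deposited tables the cluster runs along the X chromosome from Tceal6 at chrX:135208686-135210687 to Tceal1 at chrX:136708065-136709866, with Bex2, Bex4, Tceal8, Tceal5, Bex1, Tceal7, Wbp5 and Tceal3 between them in that order. Tceal5 (chrX:136200951-136203851), Bex1 (chrX:136213972-136215513) and Tceal7 (chrX:136224041-136226100) are direct neighbours within 25150 bases, and the files list no further gene starting between them. In GENCODE M21 each of the 10 genes has its coding bases in 1 exon. Bex1 and Tceal7 lie on opposite strands and share 223 exon bases there, only through the transcript Tceal7-202. The locus the authors list for Tceal7 begins 8527 bases beyond that of Bex1 and does not hold the shared stretch.

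The promoters of 8 of the 10 genes hold a common pair of short motifs close to the RefSeq start site (build GRCm38.p6), and these stretches are shown here. The genes with called differences, Tceal7, Tceal5 and Bex1, hold the pair. Tceal8 and Tceal1, which were tested and not called, hold it too, so the pair does not set the called genes apart. The capitals mark TGAC and CACGTGA on the strand of the gene. The search allowed 8 to 14 bases between them, and here 10 lie between them in Tceal1 and 8 in the others.
Tceal7: gttggaagaTGACataatcctCACGTGAtt
Tceal5: gcccactggTGACgttcctgtCACGTGAtc
Bex1: tttggcttcTGACgcaagtggCACGTGAct
Tceal8: gctcattgaTGACgcgatcctCACGTGAcc
Tceal1: ccagctgTGACgcgctcccctCACGTGAcc
Tceal3: gagctcgggTGACgcggtgttCACGTGAcc
Tceal6: tagctagggTGACgctttgctCACGTGAct
Bex4: tttggcttcTGACgcaagtggCACGTGAct
The printed stretches of Bex1 and Bex4 are identical. The first base of CACGTGA stood between 60 bases before the start site, in Tceal7 at chrX:136223960-136223989, and 17 bases after it, in Tceal8. Over all 32851 RefSeq promoter windows of the same length, searched on both strands, 70 windows of 67 genes held the pair, which is 0.213%, and 16 of those 67 genes lie on the X chromosome. Those 16 include the 8 members shown here and their neighbour Bex3. Wbp5 (RefSeq Tceal9) and Bex2 did not hold it in this window. The pair was picked after these promoters had been read, so its share is a description, and a match is not evidence of a site in use.

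Of the motifs chosen from the biology of the family, the general E-box CANNTG, which CACGTG overlaps, was in 10 of 10 member windows and in 72.3% of all windows. CACGTG by itself was not among the motifs chosen from that biology and is part of the pair picked after these promoters had been read. It was in 8 of 10 member windows and in 7.15% of all windows, which is a description. The forms CAGCTG and CACCTG were each in 1 of 10 windows, Tceal1 and Tceal3, against 16.3% and 20.2% of all. CAGAC was in 4 of 10 against 49.6%, TATAAA in 1 of 10 against 13.6%, and the MEF2 core motif in 0 of 10 against 3.69%. The 250 bases before the start of Tceal7 (chrX:136223791-136224040, plus strand) held 1 CANNTG match, the CACGTG in capitals.
Tceal7 upstream: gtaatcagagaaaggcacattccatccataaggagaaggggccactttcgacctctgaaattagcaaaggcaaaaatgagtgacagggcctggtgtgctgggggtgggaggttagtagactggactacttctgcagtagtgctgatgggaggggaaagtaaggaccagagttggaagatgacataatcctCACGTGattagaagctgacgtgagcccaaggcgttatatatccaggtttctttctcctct

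Some members are so alike that reads could be split between them. The coding bases of Tceal3 and Tceal6 were 98.2% identical, those of Tceal3 and Tceal5 88.4%, and those of Bex1 and Bex2 91.5%. Of all 50-base stretches of the GENCODE transcript closest to the deposited locus, 31.0% in Tceal5, 44.3% in Tceal3, 32.8% in Bex1 and 49.7% in Bex4 recurred exactly in another gene, mostly another member. No stretch of Tceal7, Wbp5 or Tceal1 did so. The values of Tceal5 and Bex1 are therefore less certain than that of Tceal7, since the authors' treatment of such reads is not given in the sources used here.

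Levels are FPKM, the sequenced fragments of a gene divided by its length in kilobases and scaled to the library's mapped total, so that genes of different length can be set side by side. Fst itself stood at 49.7 to 67.8 FPKM in the follistatin libraries of day 3, 367 to 407 at day 7 and 1315 to 1421 at day 14, against 0.808 to 1.42 FPKM in all control libraries. Supplied and endogenous Fst RNA cannot be told apart. The absolute depth is unknown, and steps between low values put the chronic libraries at 3.07 to 4.66 times and the day 3 libraries at 0.688 to 1.27 times the depth of control day 3 replicate 1. Fibre genes checked the tissue: 8 muscle fibre markers summed to 68317 to 77880 FPKM in follistatin and 80227 to 86191 in control libraries at day 3. These day 3 sums cannot be set against each other. Myh4 is listed at 0 in all 4 follistatin libraries of day 3 and at 8989 to 10504 FPKM in the controls. In the libraries of days 7 and 14, 7 of the 8 are listed at 0 in every follistatin and 4 in every control library, and the authors' deposited table gives them the status HIDATA, Cuffdiff's mark for a gene with more reads than it could process. In bulk muscle, a change in the number of cells of a type and a change in RNA per cell cannot be told apart.

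Wbp5 and Tceal7 were the most abundant members in control muscle. In the day 3 controls Wbp5 averaged 22.1 ± 2.8 FPKM and Tceal7 14.1 ± 3.6, followed by Bex1 at 8.62 ± 2.7, Tceal5 at 7.74 ± 0.17, Tceal1 at 5.53 ± 2.0 and Tceal8 at 4.95 ± 0.96 (SD, n = 3 each). Wbp5 did not overlap with Tceal7, and from Tceal7 down the libraries of each gene overlapped in part with those of the next. Tceal3 ranged from 0.0703 to 2.46 FPKM over all 14 libraries. Tceal6, Bex2 and Bex4 stayed below 0.5 FPKM in every library and were listed at 0 in 7, 12 and 9 of the 14. So 6 of the 10 genes passed the limit of a mean of at least 1 FPKM, and Tceal3, Tceal6, Bex2 and Bex4 did not.

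Tceal7 had the largest difference between follistatin and control of the cluster at each day. At day 3 it stood at 79.4, 27.2, 43.3 and 48.4 FPKM in the follistatin libraries, against 13.2, 11.1 and 18.1 FPKM in the control libraries. At day 7 it stood at 162 and 311 FPKM in follistatin libraries and 19.0 and 21.5 FPKM in control libraries. At day 14 it stood at 393 and 533 FPKM in follistatin libraries and 18.7 FPKM in the control library. The groups overlapped at none of the 3 days, the follistatin libraries of days 3 and 7 differed among themselves by more than their controls did, and the highest values were those of day 14. The ratio of group means was 3.51 at day 3, 11.7 at day 7 and 24.8 at day 14. On the log2(FPKM + 1) scale the difference between follistatin and control was 1.67 ± 0.32 at day 3, 3.41 ± 0.43 at day 7 and 4.55 ± 0.53 at day 14 (limma SE). Tceal7 ranked 49 of 11268 tested genes by this difference at day 3, 16 of 11306 at day 7 and 10 of 11306 at day 14, counted from the highest.

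Tceal5, a close copy of Tceal3 and Tceal6 whose function is little described, had the next largest difference at days 7 and 14, and at day 3 stood slightly below Bex1. Its FPKM were 17.5, 11.6, 16.4 and 17.5 in follistatin libraries and 7.56, 7.81 and 7.87 in control libraries at day 3. At day 7 they were 39.9 and 44.4 in follistatin libraries and 8.68 and 10.3 in control libraries. At day 14 they were 48.2 and 58.7 in follistatin libraries and 8.25 in the control library. All follistatin libraries stood above all controls at each day, and the controls stayed between 7.56 and 10.3 FPKM throughout. The log2 difference was 0.92 ± 0.14 at day 3, 2.05 ± 0.18 at day 7 and 2.55 ± 0.22 at day 14. In follistatin day 3 replicate 2, which had the lowest Tceal5 of its group, Tceal3 was listed at 2.46 FPKM, its highest value of all libraries. Whether shared reads moved between these 2 genes was not tested.

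Bex1, known in neurons as a partner of the neurotrophin receptor p75, was higher with follistatin at each day, by ratios closer to each other than those of Tceal7. At day 3 it stood at 19.5, 19.6, 15.4 and 16.2 FPKM in follistatin libraries and 6.87, 7.26 and 11.7 FPKM in control libraries. At day 7 it stood at 11.6 and 12.2 FPKM in follistatin libraries and 5.07 and 5.70 FPKM in control libraries. At day 14 it stood at 19.99 and 26.5 FPKM in follistatin libraries and 9.15 FPKM in the control library. Within each day the groups did not overlap, whereas the follistatin values of day 7 lay on both sides of the highest control of day 3. The ratio of means was 2.05 at day 3, 2.21 at day 7 and 2.54 at day 14, and the log2 differences were 0.99 ± 0.18, 1.02 ± 0.22 and 1.24 ± 0.27 on those days.

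**Figure D1:**
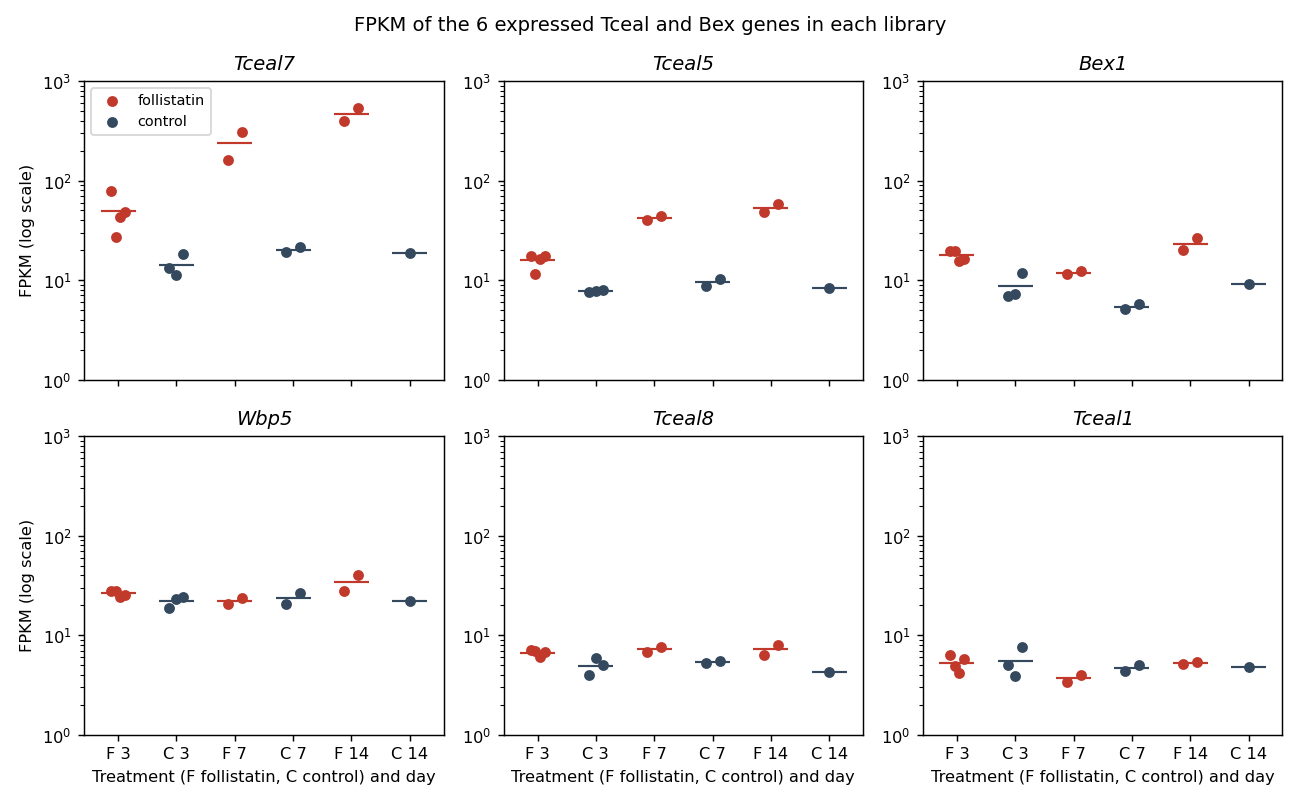
FPKM on a log axis for the 6 expressed genes in each library (points) with the group mean (bars), follistatin (F) left of control (C) at days 3, 7 and 14. Tceal7 climbs to 393 and 533 FPKM in the day 14 follistatin libraries against 18.7 in the day 14 control, while Tceal1 stays between 3.41 and 7.69 FPKM.

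Wbp5, first found as a binding partner of WW domains and placed in the same family as Tceal9, differed little. Its FPKM were 24.3 to 27.8 in follistatin and 19.0 to 24.2 in control libraries at day 3, 20.7 and 23.9 in follistatin and 20.7 and 26.5 in control libraries at day 7, and 27.8 and 40.2 in follistatin and 22.2 in control libraries at day 14. The groups overlapped at day 7 and did not at days 3 and 14, with log2 differences of 0.25 ± 0.10, -0.07 ± 0.18 and 0.57 ± 0.22 at days 3, 7 and 14.
Tceal8 stood at 6.04 to 7.16 FPKM in follistatin and 3.97 to 5.87 in control libraries at day 3, 6.80 and 7.61 in follistatin and 5.31 and 5.58 in control libraries at day 7, and 6.38 and 8.02 in follistatin and 4.25 in control libraries at day 14. Its follistatin libraries lay above the controls each day, by 0.38 ± 0.12, 0.35 ± 0.15 and 0.63 ± 0.19 on the log2 scale at days 3, 7 and 14. Tceal1, whose human counterpart is a nuclear phosphoprotein, stood at 4.15 to 6.38 FPKM in follistatin and 3.87 to 7.69 in control libraries at day 3, 3.41 and 4.00 in follistatin and 4.37 and 5.03 in control libraries at day 7, and 5.17 and 5.43 in follistatin and 4.84 in control libraries at day 14. Its groups overlapped at day 3, and its differences of -0.02 ± 0.20, -0.28 ± 0.24 and 0.11 ± 0.29 on the log2 scale had no common sign over days 3, 7 and 14.

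At day 3 limma called 3 of the 6 members that could be tested (Tceal7, Tceal5 and Bex1), all higher, at a Benjamini-Hochberg adjusted p under 0.05 over 11268 genes, of which 1.49% were called and 0.923% were called higher. In 5 of the 6 members the day 3 groups did not overlap, follistatin above control, which held in 8.31% of all genes. In the chronic set of 4 follistatin and 3 control libraries 2 of 6 were called, Tceal7 with a log2 difference of 3.96 ± 0.36 and Tceal5 with 2.27 ± 0.15, both higher, where 5.50% of 11047 genes were called and 2.24% called higher. Bex1 missed the threshold in that set at 1.24 ± 0.31. Without overlap and higher there were 4 members, against 8.96% of all genes. In 1 fit of all 14 libraries, the same 3 members as at day 3 were called higher at day 7, where 3.69% of 11306 genes were called and 1.47% called higher, and at day 14, where 5.62% were called and 2.00% called higher. The single day 14 control is assumed in that fit to vary like the other groups. The split of all calls depends on the scaling: 247 higher and 361 lower in the chronic set became 314 higher and 232 lower after median ratio rescaling and 414 higher and 326 lower after quantile normalization, and the same rescaling turned 166 higher and 251 lower into 247 and 172 at day 7 and 226 higher and 409 lower into 332 and 250 at day 14. At day 7, 4 members were higher without overlap, against 17.9% of all genes, and Tceal1 lower, against 33.9%, and at day 14 all 6 tested members were higher, against 27.0%. The effect of the chronic set minus that of day 3 was called in 1 of 6 members, Tceal5, against 0.0884% of 11306 genes. Since the members were chosen with this contrast known, nothing is read from these counts.

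The day 3 calls depended on single libraries. The number of members called was 0 without follistatin replicate 1, 2 without replicate 2, 0 without replicate 3 and 1 without replicate 4, and 0 without control replicate 1, 0 without control replicate 2 and 1 without control replicate 3. The log2 difference over these 7 fits ranged from 1.41 to 1.92 for Tceal7, from 0.86 to 1.05 for Tceal5 and from 0.86 to 1.21 for Bex1. In the chronic set Tceal7 and Tceal5 were called in each of the 7 fits that leave out a library, and Bex1 was called only without follistatin day 7 replicate 1, at 1.40. The authors' deposited table marks Tceal7 (log2 1.77 at day 3 and 4.13 in the chronic set), Tceal5 (0.99 and 2.39) and Bex1 (1.00 and 1.40) as significant in both sets. The same deposited table marks Tceal8, Wbp5 and Tceal1 as not significant in either set and left Tceal3, Tceal6, Bex2 and Bex4 untested.

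**Figure D2:**
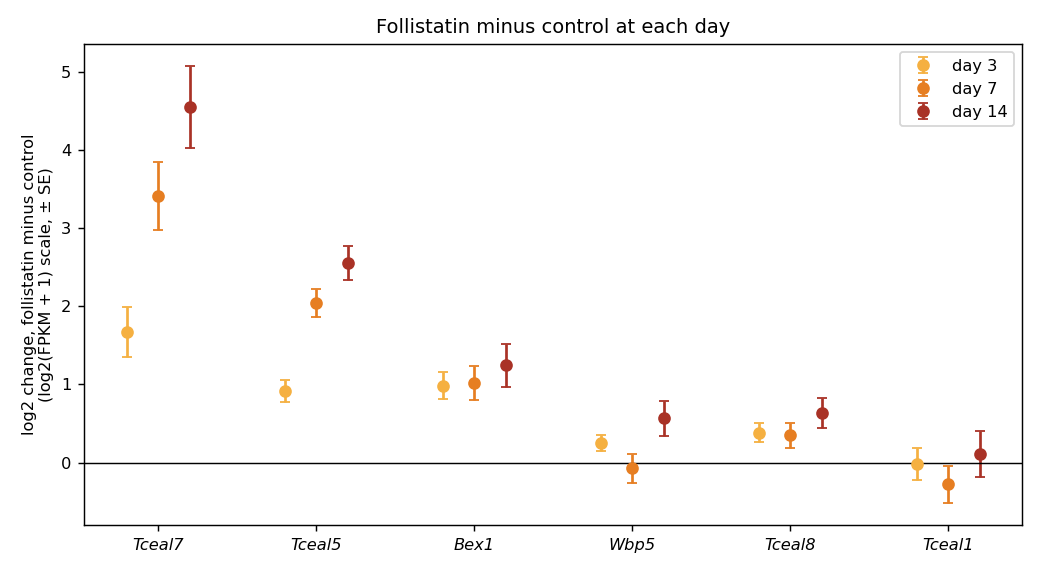
Difference between follistatin and control on the log2(FPKM + 1) scale with the limma SE (bars) for each expressed gene at days 3, 7 and 14. Tceal7 stands at 1.67, 3.41 and 4.55 and Tceal5 at 0.92, 2.05 and 2.55 in day order, while Bex1 stays between 0.99 and 1.24.

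The make-up of the cluster's RNA differed accordingly. The summed FPKM of the 10 genes was 123 ± 25 in follistatin (n = 4) and 63.7 ± 10.5 in control libraries (n = 3) at day 3, 324 ± 112 in follistatin and 69.4 ± 8.2 in control libraries at day 7 (SD, n = 2 each), and 587 ± 121 in follistatin (n = 2) and 68.0 in the control library at day 14. Tceal7 made up 27.0% to 50.1% of this sum in follistatin and 18.8% to 23.9% in control libraries at day 3, 66.2% and 77.0% in follistatin and 28.6% and 29.9% in control libraries at day 7, and 78.5% and 79.3% in follistatin and 27.4% in control libraries at day 14. The ratio of Tceal7 to Bex1, its neighbour across the shared exon stretch, was 1.38 to 4.07 in follistatin and 1.53 to 1.92 in control libraries at day 3. It was 14.0 and 25.4 in follistatin and 3.75 and 3.77 in control libraries at day 7, and 19.7 and 20.1 in follistatin and 2.04 in control libraries at day 14. The ratios overlapped between groups at day 3 and not afterwards, so the levels of these neighbours did not keep a fixed proportion.

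**Figure D3:**
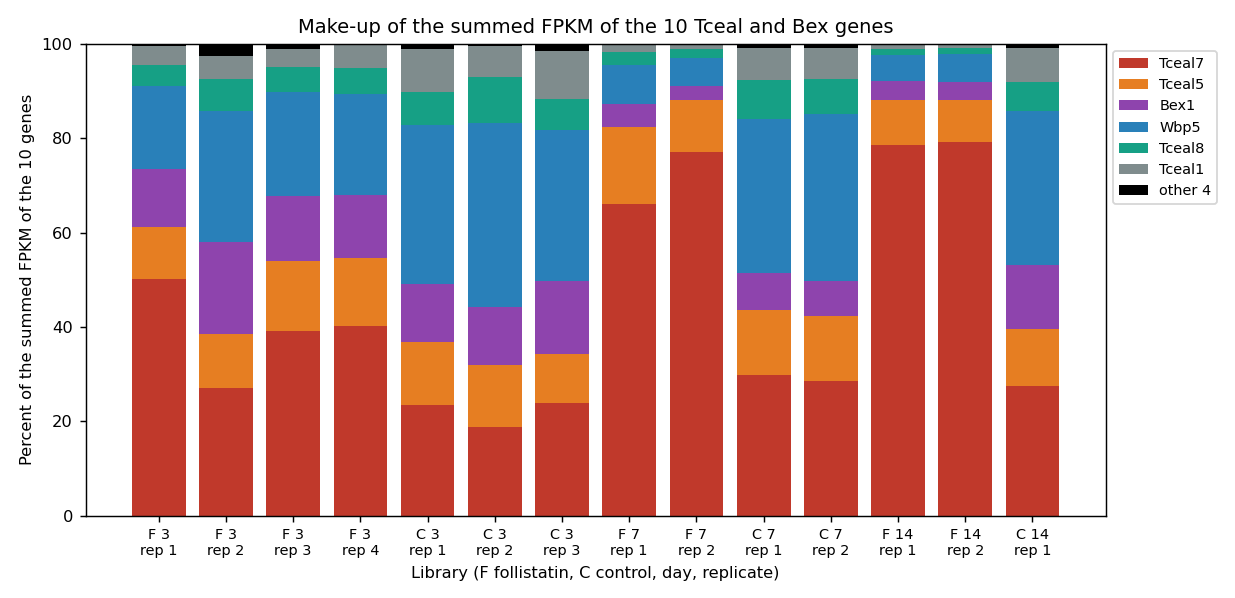
Percent of the summed FPKM of the 10 genes contributed by each, per library, with follistatin (F) left of control (C) at days 3, 7 and 14. Tceal7 supplies 78.5% and 79.3% in the day 14 follistatin libraries against 27.4% in the day 14 control.

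Time within follistatin muscle sets no follistatin library against a control. The genes were chosen with earlier results from these same libraries known, so this comparison too is a description. From the fit of all 14 libraries, limma called 0 of 6 members between follistatin day 14 and follistatin day 7, where 0.513% of 11306 genes were called, and 3 of 6 had an unadjusted p under 0.05. These were Bex1, higher at day 14 by 0.90 ± 0.22 on the log2 scale (adjusted p = 0.120), Tceal7 by 1.03 ± 0.43 (adjusted p = 0.322) and Wbp5 by 0.57 ± 0.18 (adjusted p = 0.205). In both day 14 libraries these 3 genes were above both day 7 libraries, as were Tceal5 and Tceal1, a pattern that 11.6% of all genes showed. Without follistatin day 14 replicate 1, which had the lower day 14 value of each, Bex1 (1.09) and Wbp5 (0.83) passed the threshold. The median over the 6 members was 0.50 and that over all genes -0.04 on the log2 scale.

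The controls show the members' level over time without follistatin. Between the chronic and the day 3 controls limma called 0 of 6 members, while 8.70% of 11155 genes were called, and 1 of 6 had an unadjusted p under 0.05. That was Tceal7, at 18.7 to 21.5 FPKM in the chronic controls and 11.1 to 18.1 in the day 3 controls, a log2 difference of 0.48 ± 0.17 (adjusted p = 0.138). It passed the threshold without control day 3 replicate 3, at 0.66. Tceal5 was also higher without overlap, by 0.20 on the log2 scale (adjusted p = 0.236), and 9.69% of all genes were. The other members differed by -0.33 (Bex1) to 0.06 (Wbp5). Of the other genes within 1 Mb, 4 of 19 were called, Armcx3, Morf4l2, Hnrnph2 and Rpl36a, all higher in the chronic controls, and Armcx3 stood at 13.4 to 16.1 FPKM in the chronic and 2.21 to 2.62 in the day 3 controls. Depth differs between these sets and cannot be told apart from time.

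Other genes of the region were tested in the same fits. Of the 56 genes of the files within 1 Mb of a member, 18 were tested at day 3 and 0 were called by limma, against 1.49% of all genes, with 3 at an unadjusted p under 0.05, and in the chronic set 1 of 20 was called, where 5.50% of all genes were, which is no more than the background share. That gene was Armcx6, of the armadillo repeat genes of the X chromosome, at 2.28 to 3.15 FPKM in follistatin and 1.45 to 1.68 in control libraries, a log2 difference of 0.55 ± 0.12 (adjusted p = 0.0433). The TGAC and CACGTGA pair was in the promoter of Armcx6, and also in those of Armcx1, Armcx4 and Gla, which were tested and not called in either set. It was also in that of Bex3, listed here as Ngfrap1, which begins 46.2 kb beyond the start of Tceal7. Ngfrap1 was not called in either set, with log2 differences of -0.41 ± 0.36 at day 3 and 0.19 ± 0.14 in the chronic set. A list of 19 Armcx, Gprasp and nearby genes, which includes Armcx6, gave 0 called of 12 tested at day 3 (2 at an unadjusted p under 0.05) and 1 of 13 in the chronic set, with median log2 differences of 0.06 and 0.13.

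**Figure D4:**
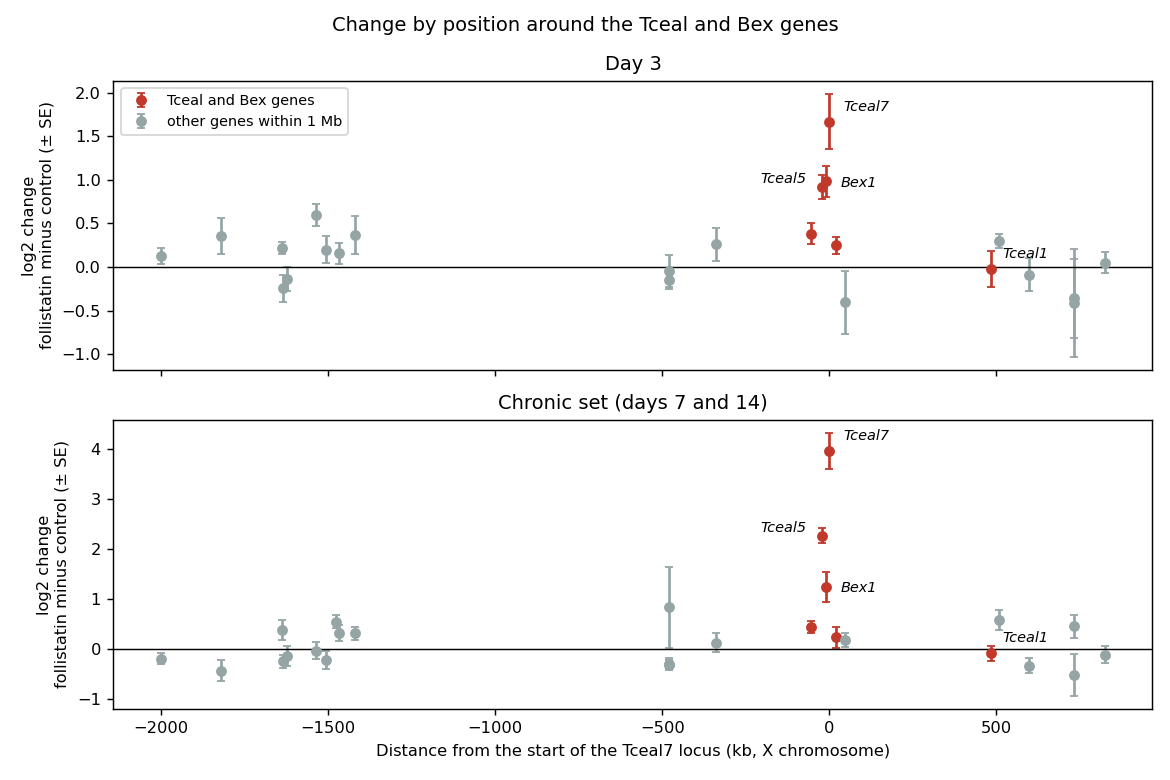
Log2 difference between follistatin and control (points, with the limma SE) for tested genes within 1 Mb of a member, by distance in kb from the start of Tceal7, at day 3 (top) and in the chronic set (bottom). Tceal7, Tceal5 and Bex1 stand close together at 1.67, 0.92 and 0.99 at day 3, and Tceal7 reaches 3.96 in the chronic set.

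Factors of transcription elongation, to which the family name refers, were lower with follistatin than in control muscle or did not pass the test. Of 29 tested at day 3 limma called 0, with 3 at an unadjusted p under 0.05, where 1.49% of all genes were called. At day 7 it called 0 of 29, with 5 at an unadjusted p under 0.05, where 3.69% of all genes were called. In the chronic set 2 of 28 were called, both lower with follistatin, as were 3.27% of all genes: Hexim1, an inhibitor of the elongation kinase P-TEFb, at 3.45 to 5.08 FPKM in follistatin and 7.24 to 7.77 in control libraries, and Rtf1, of the PAF1 complex, at 7.24 to 8.92 in follistatin and 11.6 to 12.3 in control libraries. At day 14 Tcea3, a TFIIS gene itself, was at 113 to 118 FPKM in follistatin and 249.2 in the control library, a log2 difference of -1.10 ± 0.20 (adjusted p = 0.0118), and Rtf1 was called lower too. The median of the list was 0.01 at day 3 and -0.20 in the chronic set, against 0.01 and -0.09 over all genes.

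Among regulators of muscle differentiation, 1 of 22 was called by limma at day 3, 0 of 20 in the chronic set (9 at an unadjusted p under 0.05), and 1 of 20 at day 7. Over all genes 1.49% were called at day 3, 5.50% in the chronic set and 3.69% at day 7. Myf6, a myogenic E-box factor of mature fibres, was at 91.8 to 98.4 FPKM in follistatin and 61.5 to 66.4 in control libraries at day 3, a log2 difference of 0.57 ± 0.06 (limma adjusted p = 0.00593). At that day 0.923% of all genes were called higher. Mef2d was called lower at day 7, as were 2.22% of all genes, at 34.7 to 36.1 FPKM in follistatin and 46.5 to 47.0 in control libraries. At day 14 Mef2d was at 28.2 to 31.9 FPKM in follistatin and 44.3 in the lone control library, a log2 difference of -0.55 ± 0.11. Over time in the controls, 7 of 21 were called, all lower in the chronic than in the day 3 controls, as were 4.22% of all genes. They include Myog, at 1.11 to 2.25 FPKM in the chronic and 11.3 to 22.2 in the day 3 controls, and embryonic myosin Myh3, at 1.07 to 1.93 in the chronic and 14.8 to 44.6 in the day 3 controls. The rest were Myod1, Tmem8c, Cdkn1a, Cdkn1c and Id3.

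The summed levels of markers of other cell types were compared at each day. At day 14 the 11 Schwann cell and nerve markers used here summed to 18.5 to 19.8 FPKM in the follistatin libraries and 60.6 in the lone control. Mbp, Pmp22 and Prx differed by -2.37, -1.47 and -1.52 on the log2 scale there. This sum was lower in all other controls, at 29.9 to 40.8 FPKM at day 3 and 32.6 to 34.9 at day 7. In the chronic set limma called 0 of the 5 tested, with 4 at an unadjusted p under 0.05. The 7 macrophage markers summed to 80.7 to 214 FPKM in follistatin and 40.6 in the control library at day 14, and to 134 to 318 in follistatin and 145 to 221 in control libraries at day 3. In the chronic set limma called 0 of the 6 macrophage markers tested. The 7 endothelial markers summed to 70.7 to 95.3 FPKM in follistatin and 139.6 in the lone control library at day 14. Their median log2 difference was -0.74, with Emcn at -0.65 and Tie1 at -0.74. The 6 smooth muscle and pericyte markers summed to 43.5 to 84.7 FPKM in follistatin and 134 in that control library. Their median log2 difference was -1.11, with Myh11 at -1.37 and Tagln at -1.27. The 8 fibroblast markers summed to 477 to 484 FPKM in follistatin and 509 in the control library on that day. The 6 satellite cell markers summed to 14.8 to 16.9 FPKM in follistatin and 18.0 in the control library at day 14. No defining marker of these lists was at 0 throughout a group except the nerve gene Nefl in the day 3 follistatin libraries. At day 7 the endothelial sum was 115 to 119 FPKM in follistatin and 158 to 186 in control libraries, with Tek called lower, as were 2.22% of all genes. The smooth muscle and pericyte sum on that day was 94.5 to 104 FPKM in follistatin and 136 to 180 in control libraries. The endothelial sum was also lower without overlap at day 3, at 113 to 127 FPKM in follistatin and 137 to 148 in control libraries, with 0 of 7 called by limma and 3 at an unadjusted p under 0.05. The smooth muscle and pericyte sum overlapped at day 3, at 184 to 237 FPKM in follistatin and 233 to 253 in control libraries. Of its 6 markers limma called 0 there, with 3 at an unadjusted p under 0.05. The Schwann and nerve, fibroblast and satellite cell sums overlapped between the day 3 groups as well. On day 7 the macrophage, fibroblast and satellite cell sums were 66.2 to 71.9, 665 to 782 and 17.6 to 17.98 FPKM in follistatin libraries, against 46.5 to 112, 694 to 889 and 19.7 to 20.3 in control libraries. On the same day the Schwann and nerve sum was 24.5 to 26.5 FPKM in follistatin and 32.6 to 34.9 in control libraries, and Tceal7 and Tceal5 differed there by 3.41 and 2.05 on the log2 scale. The part of these cells in the members' values was not tested.

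The genes whose course was most like that of Tceal7 were sought among 10643 genes by the root mean square difference of log2(FPKM + 1) over the 14 libraries, each gene centred on its day 3 controls. That number includes the members, predicted genes, pseudogenes and Mir and Snor genes, which were left out of the ranking. The nearest of the remaining genes were Mybph (0.89), Adora1 (0.97), Actc1 (1.008), Stbd1 (1.13) and Cited4 (1.23). Mybph, which encodes a myosin-binding protein, stood at 47.7 to 88.8 FPKM in follistatin and 16.7 to 24.3 in control libraries at day 3, and at 210 to 234 in follistatin and 10.8 in the control library at day 14. Adora1, an adenosine receptor gene, lies on the strand opposite to Mybph in GENCODE M21, where the pair has 1162 exon bases in common, and their values may not be separate. Actc1, cardiac actin, stood at 5939 to 6161 FPKM in follistatin and 359 to 578 in control libraries at day 7. At day 14 Actc1 was lower, at 1933 to 2122 FPKM in follistatin and 74.6 in the control library, whereas Tceal7 was higher than at day 7. Mybph stood at 196 to 238 FPKM in the day 7 follistatin libraries, a range that holds its day 14 values. In follistatin libraries Adora1 and Stbd1 were higher at day 14 than at day 7 without overlap, and Cited4 overlapped. Tceal5 lay at 1.18 from Tceal7 by the same measure and Bex1 at 2.00. With a pseudocount of 0.1, 3 of the 5 remained.

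With the same genes left out, the course of Bex1 was closest to Rnf144b (0.31), Srrm4os (0.31), Lgmn (0.32), Nes (0.33) and Il12a (0.35). Nes encodes nestin, an intermediate filament protein of immature and regenerating fibres, and stood at 18.1 to 26.8 FPKM in follistatin and 11.9 to 15.7 in control libraries at day 3, and at 31.1 to 34.3 in follistatin and 12.2 in the control library at day 14. Lgmn, a lysosomal protease, stood at 35.7 to 52.0 FPKM in follistatin and 26.6 to 33.7 in control libraries at day 3, and at 52.5 to 87.1 in follistatin and 20.8 in the control library at day 14. The measure ranks small differences, and genes with a smaller span of values can come closer, so the distances around Bex1 and Tceal7 are not comparable with each other. Tceal5 lay at 0.93 from Bex1, and Tceal8 and Wbp5 lay at 0.22 from each other.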

How the data were processed

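Poly(A) RNA of mouse muscle was sequenced in 14 libraries, prepared with an Illumina TruSeq kit per the labels' protocols. TopHat, Cuffdiff and mm10 are named in the submitters' processing notes. Tool versions, annotation and strand setting are not given in the sources used here. The authors computed 1 FPKM value for each gene in each deposited library file. The authors' deposited tables hold log2 changes, test scores (Cuffdiff's statistic), p-values and q-values for day 3 and for days 7 and 14 together. Of 24386 genes listed, 27 whose symbols had become dates were left out, and 24359 were used, and tests skipped the genes with the authors' status HIDATA, 4 at day 3 and 31 at days 7 and 14.

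Tests used limma 3.58.1 in R 4.3.3 (eBayes with trend) on log2(FPKM + 1), which understates changes of low genes, where the mean reached 1 FPKM, two-sided, with calls below a Benjamini-Hochberg adjusted p of 0.05. Day 3, the chronic set and the 6 controls were fitted alone. Single days and the difference between the sets came from fits of all 14 libraries. Depth is unknown, so no counting interval is given. The day 3 fit was tested on simulated data, and the other fits were not.

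The members, the lists and the rule for other genes were chosen with earlier results of these data known. That rule takes Fst, the 5 genes nearest to Tceal7 and to Bex1, and called list members, of which several are given only as counts. One marker gene is not reported here and was left out of its list. Promoters are RefSeq's (250 bases before to 50 after the start) and matched all 10 members, and exons are GENCODE M21's. Protein sequences were not used here, and identity was computed on coding bases instead. The searches for the TGAC and CACGTGA pair and for CACGTG by itself, and the 50-base stretches, were added after the data were seen. Alternatives were a pseudocount of 0.1, no filter or a mean of at least 5 FPKM, median ratio rescaling, quantile normalization, robust eBayes, a fold limit of 1.5, a replicate block, day as a covariate, other sets of libraries in the fit, and leaving out each library.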

Additional observations from a re-analysis of the deposited data

Results flagged for a closer look

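The difference between follistatin and control in Tceal5 was larger in the chronic set than at day 3, by 1.35 ± 0.21 on the log2 scale (limma interaction over 14 libraries, adjusted p = 0.0322), where 0.0884% of 11306 genes were called. The rule that chose the genes used both effects, so this value is a description. The call was lost with no filter on low values and when a single library was left out, for each of follistatin day 3 replicates 1 and 3, follistatin day 14 replicate 1, control day 3 replicates 1, 2 and 3, control day 7 replicate 1 and control day 14 replicate 1, while the value itself stayed between 1.22 and 1.48 over all alternatives. For Tceal7 the same difference was 2.29 ± 0.52 and was not called (adjusted p = 0.145), except without follistatin day 7 replicate 1, at 2.62.

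Follistatin day 3 replicate 3 stood apart from the other libraries of its group in 2 low members. It listed Tceal6 at 0.187 FPKM and Bex2 at 0.244 FPKM, where the other 3 libraries of the group list both at 0. With the other 3 at 0, the rule flags any value above 0, so these flags say little about this library.

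The listed values of Tceal3 and Tceal6 were equal in control day 3 replicate 3 (0.305 FPKM) and in follistatin day 14 replicate 1 (0.0703 FPKM).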

How the results depend on the processing

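The log2 differences of Tceal7, Tceal5 and Bex1 between follistatin and control kept their sign under every alternative in each comparison, while the number of members called moved. At day 3 (3 called) it was 1 with no filter, 1 in 1 fit of all 14 libraries, and 0 to 2 when a library was left out. In the chronic set (2 called) it was 4 in 1 fit of all 14 libraries. When a library was left out it was 2 to 3 in the chronic set, 2 to 3 at day 7 and 2 to 5 at day 14 (3 called each), 0 to 2 between follistatin day 14 and day 7 (0 called), 0 to 1 between the controls (0 called), and 0 to 2 for the difference between the sets (1 called), which was 0 with no filter. The day 3 call of Tceal7 was also lost with median ratio rescaling, quantile normalization and robust eBayes. At day 7 the Bex1 call was lost with no filter, with the day 7 libraries alone and when any of the 4 day 7 libraries was left out, and at day 14 without follistatin day 14 replicate 2. Day 14 without its only control was not run.

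Replicate numbers did not pair the day 3 libraries: the deviations of same-numbered libraries correlated at -0.05, -0.06 and -0.03. With a replicate block 0 members and 19 genes were called at day 3, against 168 genes without it, and 3 members and 164 genes in the chronic set, against 608.

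Between follistatin day 14 and day 7 the difference of -0.01 in Tceal8 changed sign, to 0.0462 with median ratio rescaling and 0.0323 with quantile normalization, and ranged from -0.152 to 0.14 without single libraries. Between the controls, without single libraries, Tceal1 (-0.14) ranged from -0.335 to 0.0823, Tceal8 (0.03) from -0.0965 to 0.14 and Wbp5 (0.06) from -0.0376 to 0.137. The median of all genes for the difference between the sets was -0.11, and -0.00 after median ratio rescaling. Over all genes, leaving out control day 7 replicate 1 cut the chronic calls from 608 to 43, and no filter to 284. Depth limits Tceal3, Tceal6, Bex2 and Bex4, whose low values give no comparison.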
